A study of Mus musculus with 10 samples.

Results

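Mouse myotubes treated with the gapmer GAP-2 were compared with myotubes treated with the scrambled gapmer GAP-scr, using every RNA-seq library of both groups. These are 4 of the 10 samples of the series, 2 libraries a group, labelled A and B. All 6 RNA-seq libraries came from muscle cells differentiated in vitro for 2 days, and the other 2 had received GAP-2/3, a second gapmer set against the same transcript. The target is Charme, a long non-coding transcript made in muscle, and the series asked what its knock-down does to gene expression. The remaining 4 samples are a ChIRP-seq experiment and were not used here. Charme itself is not analysed here, so the extent of its knock-down was not measured and the groups rest on their labels. The labels do not name the cells' line or strain. The replicates are described as biological, but no separate cultures are named. The tests therefore rest on the variation among these particular libraries, part of which may be technical.

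Myotubes are multinucleate cells that form when myoblasts leave the cell cycle and fuse. In their first days they build sarcomeres, the repeating units of actin and myosin filaments held between Z-discs, and the membrane system that couples excitation to calcium release. Gapmers are single-stranded antisense oligonucleotides with a DNA core, through which RNase H cuts the RNA they pair with.

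Expression was given in FPKM, a fragment number per length of transcript and per unit of sequencing depth, for 11228 genes. The 10993 whose mean over the 6 libraries reached 1 FPKM were tested. The sequencing depth is unknown, since FPKM does not retain it. Medians over the tested genes ran from 12.3 to 13.2 FPKM in the 4 libraries compared. Libraries A and B correlated across genes at 0.9885 in GAP-scr and 0.9951 in GAP-2, and differed by a median of 0.16 and 0.093 on the log2(FPKM + 1) scale. Rn45s, the ribosomal RNA precursor, stood at 3387 and 176 FPKM in GAP-scr and 4090.0 and 174 in GAP-2, so that 1 library of each group was high. Values below are given for libraries A and B in that order, and differences are GAP-2 minus GAP-scr in mean log2(FPKM + 1), a scale that understates the change of weakly expressed genes.

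Myotubes given GAP-2 had less RNA for the contractile apparatus and its membrane system, and more RNA for many antioxidant enzymes and several chemokines. By limma at an adjusted p under 0.05, 1144 of the 10993 genes were higher (10.4%) and 460 lower (4.18%) in GAP-2. The 2 groups did not overlap at any of these 1604 genes. Such separation is common with 2 libraries a group. Over all 10993 genes both GAP-2 libraries lay above both GAP-scr libraries at 4373 and below both at 2463. Increases reached further than decreases: 104 genes rose by more than 1 on the log2 scale and 5 fell by more than 1. The median difference of all tested genes was 0.07. The split between directions depended on scaling: after each library was brought to the same median (median scaling), 708 genes were higher and 648 lower, and after quantile normalization 692 and 687. In all 3 treatments of the data the same 620 genes were called higher and 458 lower. The count rested on each library, falling to 592 without GAP-2 library A and 504 without B, and rising to 2624 without GAP-scr library A. It was 943 and 942 without GAP-2/3 library A and B, which take no part in the difference itself. Without both libraries high in Rn45s, 1116 genes were higher and 395 lower; this leaves 1 library of GAP-scr and 1 of GAP-2, which are assumed to vary as the GAP-2/3 libraries do. Leaving out any 1 library likewise leaves its group with 1, assumed to vary as the other groups do. For most gene lists below, counts of 2 or more are also given without 1 library where they then differ by over 1.5 times, and "without either" means leaving out each in turn. List counts are to be read against the shares of all tested genes, 10.4% higher and 4.18% lower.

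**Figure D1:**
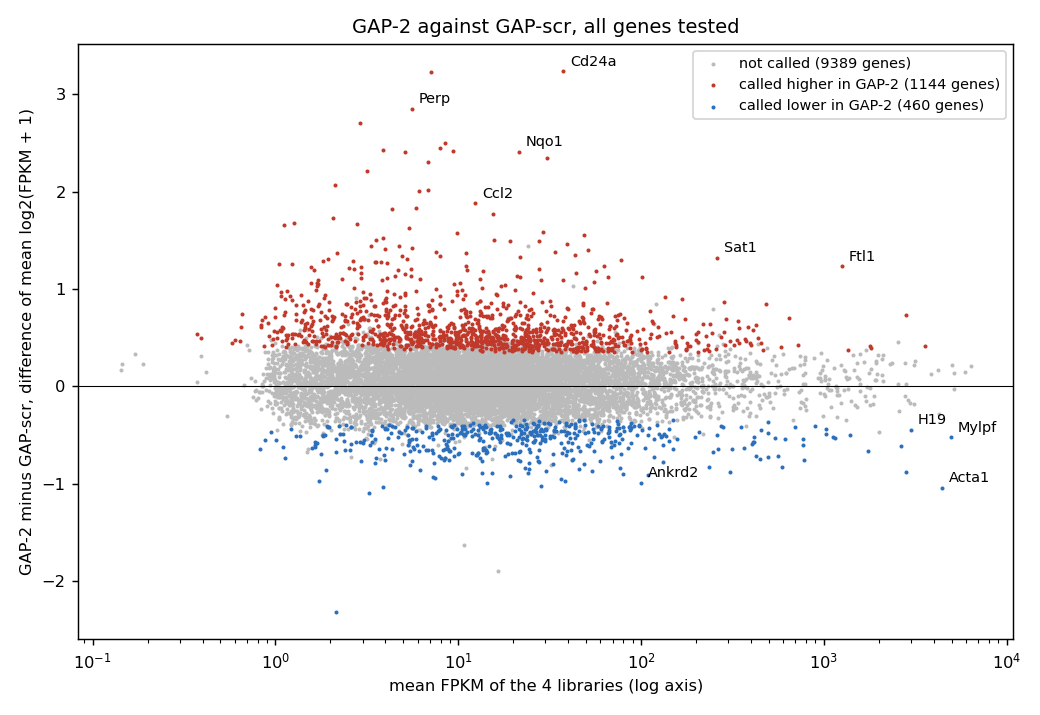
Each point is 1 of the 10993 genes tested, with the mean FPKM of the 4 libraries on a log axis and the difference of mean log2(FPKM + 1), GAP-2 minus GAP-scr, on the vertical axis. Red points are the 1144 genes called higher and blue points the 460 called lower, a split that becomes 708 and 648 after median scaling; the 2 called genes of highest mean, Mylpf and Acta1, lie on the lower side.

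Genes of the contractile apparatus were lower, the most abundant among them included. Acta1, skeletal α-actin and the main thin filament protein of muscle, stood at 5636 and 6323 FPKM in GAP-scr and 2974 and 2834 in GAP-2, a difference of -1.04 ± 0.12 (SE; adjusted p = 0.00029). Actc1, the cardiac isoform that young myotubes also make, stood at 3894 and 3414 FPKM in GAP-scr and 1938 and 2033 in GAP-2, a difference of -0.88 ± 0.12 (SE; adjusted p = 0.00089). In both genes the control libraries lay far above the GAP-2 libraries. The promoters of these 2 actin genes are shown because they are the classic muscle targets of serum response factor, which binds the CArG box, a motif searched here on both strands. They come from RefSeq (GRCm38.p6, 250 bases before to 50 after the annotated start), with CArG matches and TATAAA in capitals. Of 11295 promoters of tested genes, 1.41% hold a CArG match and 6.91% TATAAA, each counted on either strand. A match is a description of the letters only.
Acta1, chr8:123894726-123895025, minus strand: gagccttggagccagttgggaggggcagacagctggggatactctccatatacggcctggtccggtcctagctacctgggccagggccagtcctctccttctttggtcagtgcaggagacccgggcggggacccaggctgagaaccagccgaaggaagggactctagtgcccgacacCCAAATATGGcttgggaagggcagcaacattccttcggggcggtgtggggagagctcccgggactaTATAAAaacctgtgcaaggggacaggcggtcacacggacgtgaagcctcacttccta
Actc1, chr2:114052826-114053125, minus strand: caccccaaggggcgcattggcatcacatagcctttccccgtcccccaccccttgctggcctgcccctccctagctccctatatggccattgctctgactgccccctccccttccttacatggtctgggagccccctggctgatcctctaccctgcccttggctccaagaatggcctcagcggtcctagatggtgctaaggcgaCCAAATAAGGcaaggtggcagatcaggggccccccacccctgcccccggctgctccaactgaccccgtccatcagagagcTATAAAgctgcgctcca

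The lists called thin filament, troponins, myosins, and Z-disc with M-band and titin, held 67 tested genes between them (4 lists). Of these 38 were lower and 1 higher, with a median of -0.52 against 0.07 over all tested genes. Their summed FPKM was 34844 and 36746 in GAP-scr and 22432 and 24059 in GAP-2, or 6.27% and 6.36% against 3.92% and 4.12% of the FPKM of all tested genes. In bulk RNA, fewer cells of a type and less RNA per cell cannot be told apart. Of 16 thin filament genes 9 fell, among them Tpm2 (-0.76), a tropomyosin that lies along the actin filament, Neb (-0.98), the giant protein nebulin that spans it, and Nrap (-0.95), which takes part in early myofibril assembly. The gene that rose was Nebl, a relative of nebulin known from the heart, at 1.37 and 0.8701 FPKM in GAP-scr and 3.62 and 3.43 in GAP-2, a difference of 1.10 ± 0.14 (SE; adjusted p = 0.00057).

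Of 8 troponin genes 6 fell, by 0.45 to 0.61. Tnnc1, the calcium-binding subunit of slow and cardiac muscle, stood at 3039 and 3374 FPKM in GAP-scr and 1927 and 2270.4 in GAP-2, and Tnnc2, its fast-muscle counterpart, at 1592 and 1660.3 FPKM in GAP-scr and 1113 and 1179 in GAP-2. The groups lay clear of each other in both. Of 15 myosin and thick filament genes 8 fell, including the fast regulatory light chain Mylpf (-0.52), embryonic myosin heavy chain Myh3 (-0.60), the myosin-binding protein Mybph (-0.71) and Unc45b (-0.58), a chaperone that folds myosin. The adult fast and perinatal heavy chains Myh1 (-0.20, adjusted p = 0.43), Myh4 (-0.14, adjusted p = 0.6) and Myh8 (0.03, adjusted p = 0.91) were not called. Of 28 Z-disc and M-band genes 15 fell: the α-actinins Actn2 (-0.89) and Actn3 (-0.67) that crosslink actin at the Z-disc, filamin C (Flnc, -0.73), and the M-band myomesins Myom1 (-0.58), Myom2 (-0.58) and Myom3 (-0.54). Titin itself, Ttn (-0.49, adjusted p = 0.092), was not called, and neither was desmin, Des (-0.32, adjusted p = 0.11). Ankrd2, a stretch-responsive ankyrin repeat protein, stood at 176 and 93.1 FPKM in GAP-scr and 70.1 and 58.6 in GAP-2, with its control libraries far apart. Outside these lists, Trim72 (-0.90), which patches torn muscle membrane, and Igfn1 (-0.89), a Z-disc protein, were among the 15 lowest of the called genes averaging 5 FPKM or more. The lower count of troponins was 0 without GAP-2 library A, 3 without GAP-2 library B and 3 without either GAP-2/3 library. That of myosins was 2 without GAP-2 library A and 5 without either GAP-2/3 library, and that of the Z-disc list 8 without GAP-2 library A.

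**Figure D2:**
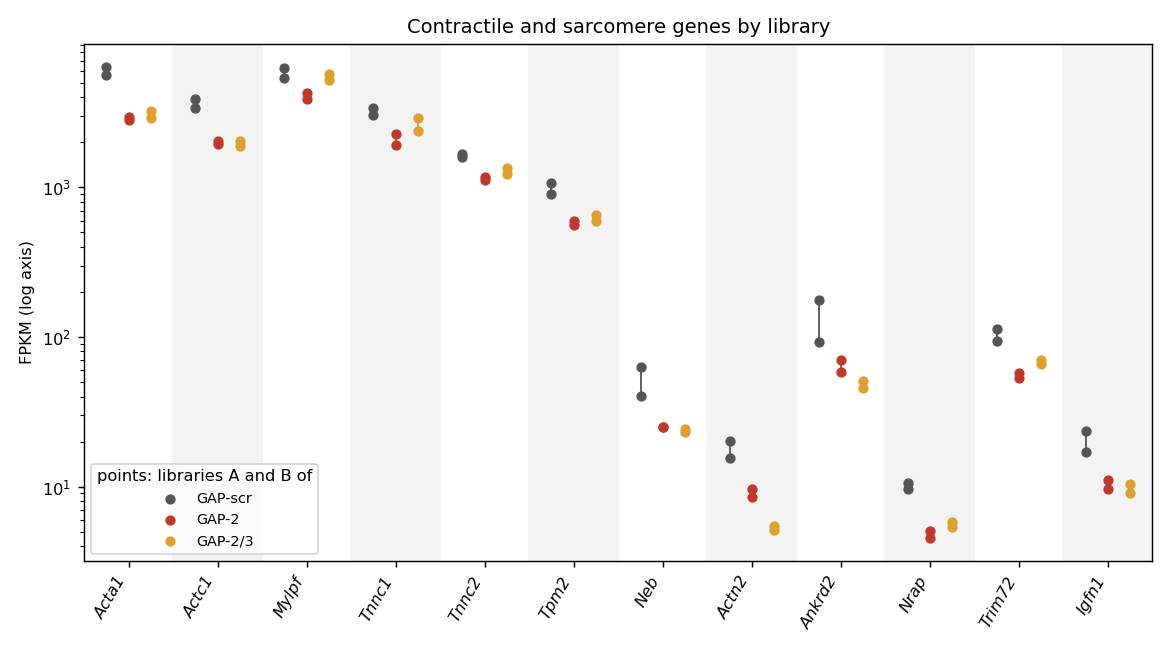
FPKM on a log axis of 12 sarcomere and membrane-repair genes in each library, with the 2 libraries of a group joined by a line. In all 12 genes both GAP-2 points lie below both GAP-scr points, while the GAP-2/3 points lie on either side of GAP-2, as in Mylpf and Actn2.

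Genes of the calcium-release machinery fell too. Of 28 genes of excitation-contraction coupling 11 were lower and 1 higher, with a median of -0.33. Ryr1, through which the sarcoplasmic reticulum releases calcium, stood at 42.7 and 36.5 FPKM in GAP-scr and 22.4 and 19.9 in GAP-2, a difference of -0.87 ± 0.13 (SE; adjusted p = 0.0014). Cacna1s, the voltage sensor that opens it, stood at 30.1 and 29.8 FPKM in GAP-scr and 16.1 and 16.6 in GAP-2, a difference of -0.83 ± 0.12 (SE; adjusted p = 0.0011). In each, both GAP-2 libraries were well below both controls. The calcium pump Atp2a1 (-0.83), the channel subunit Cacnb1 (-0.76), the junctional protein Jph2 (-0.45) and dysferlin (Dysf, -0.58), which acts in membrane repair, also fell. Casq1, the calcium store protein, was not called, at 23.7 and 30.2 FPKM in GAP-scr and 23.3 and 29.7 in GAP-2. Cav3, caveolin of muscle, was not called either, with the control libraries far apart at 27.7 and 56.1 FPKM in GAP-scr and 18.6 and 26.4 in GAP-2 (adjusted p = 0.054). Of 15 genes of the acetylcholine receptor and neuromuscular junction 6 fell and none rose by limma (0 at an unadjusted p under 0.05). They were the receptor subunits Chrna1, Chrnb1, Chrnd and Chrng, the agrin receptor Lrp4 and the neuregulin receptor Erbb3. Chrng, the fetal γ subunit, stood at 393 and 401 FPKM in GAP-scr and 214 and 216 in GAP-2, a difference of -0.88 ± 0.10 (SE; adjusted p = 0.00024). The clustering factors Musk (-0.35, adjusted p = 0.088), Dok7 (-0.52, adjusted p = 0.063) and Rapsn (-0.35, adjusted p = 0.061) were not called. The lower coupling genes numbered 5 without GAP-2 library A, 6 without GAP-2 library B and 5 without either GAP-2/3 library. The lower junction genes numbered 11 without GAP-scr library A and 3 without GAP-2 library A.

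Among 19 myogenic transcription factors 4 were higher and 4 lower, or 21.05% each way against 10.4% and 4.18% of all genes. Myog, the myogenin that drives terminal differentiation, stood at 982 and 846 FPKM in GAP-scr and 588 and 669 in GAP-2, and Myod1, which commits cells to muscle, at 128 and 152 FPKM in GAP-scr and 102 and 89.5 in GAP-2. Both were lower in both GAP-2 libraries, by 0.54 and 0.54. Tead4 and Mef2d fell as well. Myf5, the factor most typical of myoblasts, stood at 14.8 and 11.6 FPKM in GAP-scr and 23.5 and 24.97 in GAP-2, a difference of 0.84 ± 0.13 (SE; adjusted p = 0.0022), and Id1 (0.45), an inhibitor of the myogenic factors, Eya1 (0.50) and Tcf12 (0.39) rose too. The factors Mef2a (-0.02, adjusted p = 0.91) and Mef2c (-0.16, adjusted p = 0.37) were not called. After median scaling 2 were higher and 5 lower, and after quantile normalization 1 and 5. Without both libraries high in Rn45s 1 was higher and 4 lower. The higher count was 2 without GAP-scr library B, 1 without either GAP-2 library and 2 without either GAP-2/3 library, and the lower count 1 without GAP-2 library A. Of 21 genes of fusion and adhesion 6 fell. Tmem8c (myomaker), a membrane protein required for fusion, stood at 659.6 and 734 FPKM in GAP-scr and 420.0 and 424 in GAP-2. Gm7325 (myomixer), its partner in fusion, stood at 519 and 597 FPKM in GAP-scr and 319 and 345 in GAP-2. Both fusion genes were lower in each GAP-2 library, by 0.72 and 0.75, and the adhesion molecules Cdh2 (-0.61), Ncam1 (-0.61) and Itga7 (-0.64) fell by similar amounts. The 1 that rose was Anxa1 (0.70), a calcium-dependent membrane-binding protein.

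Of 19 genes of muscle energy supply 7 were lower and 1 higher. Ckm, the creatine kinase of muscle that regenerates ATP, stood at 659 and 571 FPKM in GAP-scr and 385 and 358 in GAP-2, a difference of -0.72 ± 0.11 (SE; adjusted p = 0.002), and Ckb, the brain-type enzyme, at 637 and 878 FPKM in GAP-scr and 399 and 446 in GAP-2, a difference of -0.83 ± 0.15 (SE; adjusted p = 0.0046). Myoglobin (Mb, -0.55), glycogen synthase (Gys1, -0.54) and glycogen phosphorylase (Pygm, -0.42) fell too, and Pdk4 (0.48), which brakes pyruvate oxidation, rose. Of 26 genes of the dystrophin complex and its laminin receptors 9 fell and none rose by limma (0 at an unadjusted p under 0.05), basement membrane components among them. Col4a1, a collagen IV chain of basement membranes, stood at 26.8 and 27.4 FPKM in GAP-scr and 15.3 and 15.8 in GAP-2. Its partner chain Col4a2 stood at 30.04 and 32.7 FPKM in GAP-scr and 15.5 and 17.5 in GAP-2, and in both the groups were well apart. Perlecan (Hspg2, -0.72), nidogen 2 (Nid2, -0.70), laminin α2 (Lama2, -0.57) and dystroglycan (Dag1, -0.49) fell too, while the sarcoglycans were not called. The lower count of the energy list was 2 without either GAP-2 library. Lower genes of the dystrophin list numbered 5 without GAP-2 library A. Of 35 targets of SRF, MRTF and YAP 6 fell and 2 rose. Ctgf, a secreted matrix regulator and YAP target, stood at 27.7 and 50.1 FPKM in GAP-scr and 16.7 and 19.01 in GAP-2, and Tagln, a smooth muscle actin-binding protein, at 58.9 and 80.97 FPKM in GAP-scr and 35.6 and 39.4 in GAP-2. The control libraries were far apart in both, yet each lay above both GAP-2 libraries. Acta2, which the thin filament list also holds, Thbs1 (-0.51), Zyx (-0.47) and Tpm1 (-0.43) completed the lower genes, and F3 (0.79) and Fos (0.59) rose. The YAP targets Cyr61 (-0.06, adjusted p = 0.76) and Ankrd1 (-0.05, adjusted p = 0.8) were not called. The lower count of this list was 10 without GAP-scr library A and 3 without either GAP-2 library, and the higher 1 without either GAP-2 library.

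Of the pathway lists examined, targets of NRF2 had the largest share of higher genes, NRF2 being the transcription factor that answers oxidants and electrophiles by raising glutathione synthesis and detoxifying enzymes. Of 38 tested targets 23 rose and none fell by limma (0 lower at an unadjusted p under 0.05), 60.5% higher against 10.4% of all genes, with a median of 0.50. Nqo1, a quinone reductase and the usual reporter of the pathway, stood at 5.62 and 6.62 FPKM in GAP-scr and 35.6 and 38.00 in GAP-2, a difference of 2.41 ± 0.12 (SE; adjusted p = 3.8e-07). Aldh3a1, an aldehyde dehydrogenase, stood at 2.22 and 2.33 FPKM in GAP-scr and 17.3 and 15.9 in GAP-2, a difference of 2.42 ± 0.13 (SE; adjusted p = 8e-07). Ftl1, the ferritin light chain that stores iron, was far more abundant and stood at 757 and 738 FPKM in GAP-scr and 1747 and 1771 in GAP-2, a difference of 1.23 ± 0.11 (SE; adjusted p = 4.1e-05). The groups were well apart at all 3 genes, with replicates close together.

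Srxn1, the sulfiredoxin that repairs oxidised peroxiredoxins, stood at 7.53 and 8.36 FPKM in GAP-scr and 19.2 and 19.5 in GAP-2, a difference of 1.19 ± 0.11 (SE; adjusted p = 8e-05). Its promoter is shown as that of a known NRF2 target, with matches to the core of the antioxidant response element (TGANNNNGC, both strands) in capitals. It holds 4, and 0.31% of the 11295 promoters hold as many, while 42.9% hold at least 1. So many matches are unusual, and this promoter was picked as an example that does not stand for the other higher genes. A match is a description of the letters only, and its part in the rise was not tested.
Srxn1, chr2:152105274-152105573, plus strand: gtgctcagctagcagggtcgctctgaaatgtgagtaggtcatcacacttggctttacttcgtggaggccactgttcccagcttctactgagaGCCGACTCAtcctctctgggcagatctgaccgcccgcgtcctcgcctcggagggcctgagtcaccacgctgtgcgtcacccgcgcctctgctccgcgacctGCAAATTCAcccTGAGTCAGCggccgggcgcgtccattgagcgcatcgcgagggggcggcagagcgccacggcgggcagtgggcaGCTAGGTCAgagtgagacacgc

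Both subunits of the rate-limiting enzyme of glutathione synthesis rose, Gclc (0.77) and Gclm (0.49), as did the glutathione transferases Gstm1 (0.64), Gstm2 (0.87), Gsta4 (0.69) and Gstt1 (0.91). These transferases belong to a family of similar genes, between which reads can be split. Haem oxygenase 1 (Hmox1, 0.72), thioredoxin reductase (Txnrd1, 0.50), the autophagy receptor p62 (Sqstm1, 0.85) and the NADPH-producing enzyme G6pdx (0.78) rose by 0.50 to 0.85. The cystine carrier Slc7a11 was not called, at 6.42 and 9.01 FPKM in GAP-scr and 9.14 and 8.87 in GAP-2, nor was the ferritin heavy chain Fth1, at 983 and 1609 FPKM in GAP-scr and 1331 and 1351 in GAP-2. The factor's own transcript Nfe2l2 stood at 57.8 and 53.6 FPKM in GAP-scr and 65.1 and 73.6 in GAP-2 (adjusted p = 0.079). After median scaling 19 targets were higher, and 15 without GAP-2 library A and 14 without GAP-2 library B. Among 7 metallothionein and zinc genes 3 rose, led by Mt1, a metal-binding protein, at 9.02 and 17.4 FPKM in GAP-scr and 29.5 and 28.02 in GAP-2, a difference of 1.13 ± 0.21 (SE; adjusted p = 0.0061). Its control libraries differed by more than its GAP-2 libraries. The higher count of this list was 1 without GAP-2 library B. Mt2 was not called, at 3.54 and 5.17 FPKM in GAP-scr and 6.09 and 6.15 in GAP-2 (adjusted p = 0.069).

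**Figure D3:**
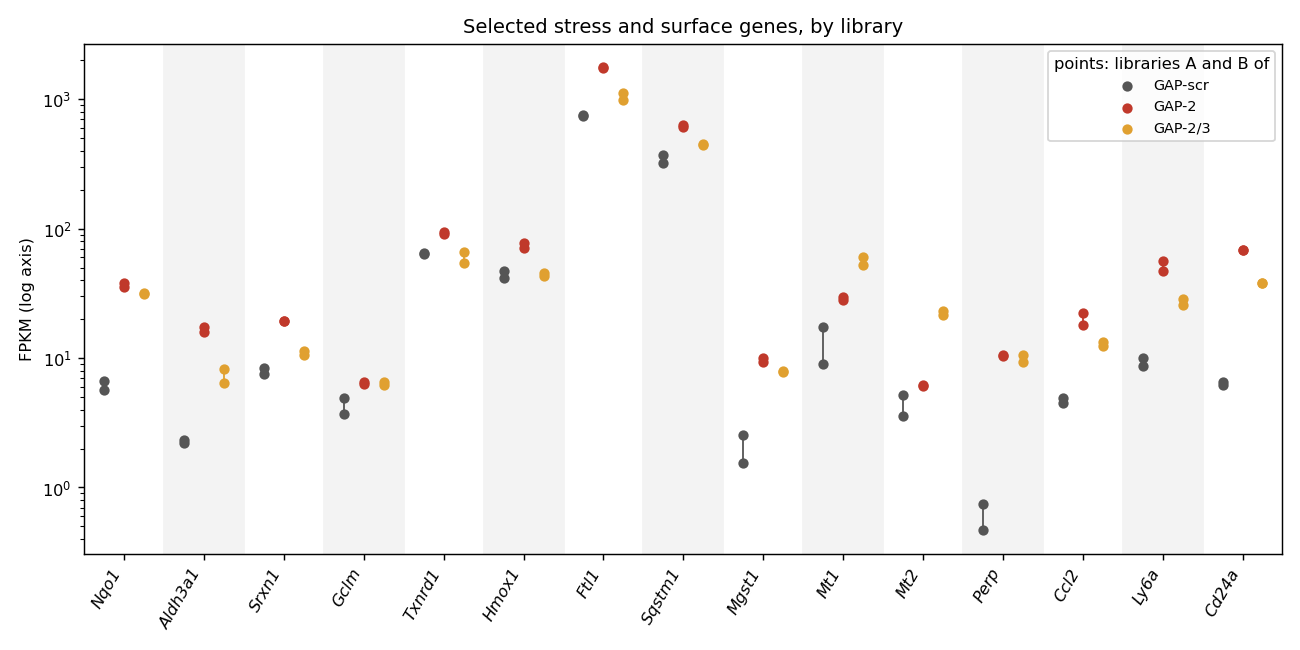
FPKM on a log axis of 15 genes in each library, with the 2 libraries of a group joined by a line. Both GAP-2 points lie above both GAP-scr points in all 15, Mt2 being the one that was not called; GAP-2/3 lies below GAP-2 in Ftl1, Aldh3a1 and Cd24a and above it in Mt1 and Mt2.

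Among 39 tested p53 targets and DNA damage genes 10 rose (25.6%) and none fell by limma (0 lower at an unadjusted p under 0.05). Perp, a desmosomal membrane protein, stood at 0.466 and 0.7501 FPKM in GAP-scr and 10.5 and 10.6 in GAP-2, a difference of 2.85 ± 0.13 (SE; adjusted p = 3e-07). Trp53inp1, a cofactor of p53, stood at 35.98 and 20.7 FPKM in GAP-scr and 78.3 and 69.04 in GAP-2, and Mdm2, the ligase that degrades p53, at 65.7 and 49.2 FPKM in GAP-scr and 96.7 and 94.7 in GAP-2. Both GAP-2 libraries were above both controls in each. The death receptor Fas (0.98), the growth inhibitor Btg2 (0.60) and the repair genes Ercc5 (0.61) and Polk (0.57) rose as well. Cdkn1a (p21), the p53 target that halts the cell cycle and is also abundant in differentiating muscle, stood at 993 and 970.1 FPKM in GAP-scr and 975 and 893 in GAP-2, and Trp53 itself at 95.3 and 82.3 FPKM in GAP-scr and 83.4 and 73.2 in GAP-2. Neither Cdkn1a (-0.07, adjusted p = 0.68) nor Trp53 (-0.18, adjusted p = 0.38) was called. In 30 of the 39 genes GAP-scr library A was above library B, against 5973 of all 10993 genes, and in Ccng1, a cyclin G, the controls were 264 and 116 FPKM against 334 and 278 in GAP-2 (adjusted p = 0.069). The higher count was 21 without GAP-scr library A, 6 without GAP-scr library B, 4 without GAP-2 library A and 6 without either GAP-2/3 library. It was 18 without both libraries high in Rn45s.

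Targets of ATF4, the factor of the integrated stress response, were mixed, 10 of 33 being higher and 2 lower. These are 30.3% and 6.06%, against 10.4% and 4.18% of all genes. Ddit3 (CHOP), a stress transcription factor, stood at 39.1 and 50.6 FPKM in GAP-scr and 105 and 117 in GAP-2, a difference of 1.30 ± 0.14 (SE; adjusted p = 0.00014). Gdf15, a secreted stress hormone that the p53 list also holds, stood at 11.3 and 10.1 FPKM in GAP-scr and 22.8 and 20.2 in GAP-2, and Ddit4, an inhibitor of mTOR signalling, at 141 and 124 FPKM in GAP-scr and 222 and 206 in GAP-2. The groups did not overlap in any of the 3. Cystathionase (Cth, 0.68), Trib3 (0.67) and Nupr1 (0.90) rose as well, while the leucine carrier Slc7a5 (-0.46) and the serine enzyme Shmt2 (-0.41) fell. Not called were Atf4 (0.09, adjusted p = 0.6) itself, the glutathione-degrading enzyme Chac1 (0.12, adjusted p = 0.58) and the asparagine synthetase Asns (0.06, adjusted p = 0.78). The higher count was 4 without GAP-2 library B, and the lower 1 without GAP-scr library B and 0 without either GAP-2 library. Of 26 ER chaperones and genes of the unfolded protein response 7 rose (26.9% against 10.4% of all genes), and 3 were higher after median scaling. The count was 2 without GAP-2 library A, 1 without GAP-2 library B and 3 without either GAP-2/3 library. The oxidase Ero1l, which supplies disulfide bonds, stood at 31.8 and 35.02 FPKM in GAP-scr and 49.97 and 74.6 in GAP-2, with the GAP-2 libraries themselves apart. The chaperone BiP (Hspa5, 0.43) and Hsp90b1 (0.45) rose by less. Among 24 heat shock genes 6 rose, including Hsp90aa1 (0.60) and Hspd1 (0.51), and 3 fell, the small heat shock proteins of muscle Hspb2 (-0.48), Hspb3 (-0.46) and Hspb7 (-0.50). After either scaling 3 were higher and 3 lower, and without both libraries high in Rn45s 4 and 0. The higher count was 1 without GAP-scr library B, 0 without either GAP-2 library and 2 without either GAP-2/3 library, and the lower count 1 without either GAP-scr library, 0 without GAP-2 library A and 0 without either GAP-2/3 library.

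Several chemokines and alarmins rose. Of 21 genes of this list 9 were higher and 1 lower. Ccl2, which attracts monocytes, stood at 4.53 and 4.897 FPKM in GAP-scr and 22.1 and 18.1 in GAP-2, a difference of 1.88 ± 0.13 (SE; adjusted p = 4.8e-06). Il33, a nuclear alarmin of the interleukin 1 family, stood at 4.097 and 4.86 FPKM in GAP-scr and 14.5 and 15.99 in GAP-2, a difference of 1.57 ± 0.13 (SE; adjusted p = 2.4e-05). The neutrophil chemokine Cxcl1 was weaker, at 1.93 and 1.103 FPKM in GAP-scr and 7.38 and 5.06 in GAP-2. In all 3 genes both GAP-2 libraries were far above both controls. Ccl7 (1.28), Cxcl12 (0.83), cyclooxygenase 2 (Ptgs2, 0.73) and Csf1 (0.53) followed, while Nfkb1 (-0.40), which encodes a precursor of the NF-κB subunit p50, fell and the interleukin Il6 (-0.15, adjusted p = 0.61) was not called. Of 22 interferon and innate response genes 8 rose and none fell by limma (1 lower at an unadjusted p under 0.05). After median scaling 6 were higher and after quantile normalization 5. The count was 2 without either GAP-2 library and 4 without either GAP-2/3 library. Zbp1, a sensor of Z-form nucleic acids, stood at 3.08 and 3.09 FPKM in GAP-scr and 7.91 and 8.07 in GAP-2, and Isg15, a ubiquitin-like interferon product, at 5.01 and 4.66 FPKM in GAP-scr and 8.31 and 9.63 in GAP-2. Both stayed under 10 FPKM in the 4 libraries compared, and the groups did not overlap. A carrier of the interferon signal, Irf9 (0.02, adjusted p = 0.94), was not called. Of 18 genes of oligonucleotide uptake and RNase H 2 rose, Pspc1 (0.48) and Hspa5, or 11.1% against 10.4% of all genes. The count was 0 without either GAP-2 library and 1 without either GAP-2/3 library. Rnaseh1, the nuclease that gapmers use, stood at 6.0 and 7.32 FPKM in GAP-scr and 6.26 and 6.03 in GAP-2. After median scaling 8 of the chemokine list were higher and 3 lower. The higher chemokine count was 5 without GAP-2 library B, that of the lower ones 4 without GAP-scr library A, 0 without either GAP-2 library and 0 without either GAP-2/3 library.

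Signalling genes were called in both directions. Ccnd1 (cyclin D1), which drives entry into the cell cycle, stood at 14.8 and 17.9 FPKM in GAP-scr and 38.1 and 39.7 in GAP-2, a difference of 1.21 ± 0.12 (SE; adjusted p = 0.0001). Cdkn1c (p57), an imprinted inhibitor of cyclin-dependent kinases needed for muscle differentiation, stood at 148 and 137 FPKM in GAP-scr and 66.3 and 84.96 in GAP-2, a difference of -0.92 ± 0.13 (SE; adjusted p = 0.0012). In each the groups were clearly separate. Of 18 cyclins, kinase inhibitors and Rb family genes 3 rose and 1 fell, or 16.7% and 5.56% against 10.4% and 4.18% of all genes. The higher count changed when single libraries were left out. None of 30 mitosis genes was called by limma. At an unadjusted p under 0.05, 0 were higher and 5 lower, and without GAP-scr library A 2 were called lower. Of 31 replication genes 2 rose and 2 fell, or 6.45% each way against 10.4% and 4.18% of all genes. After either scaling none was higher and 2 lower. Without both libraries high in Rn45s 1 was higher and 3 lower. Higher replication genes numbered 0 without either GAP-2 library and 1 without either GAP-2/3 library, and lower ones 5 without GAP-scr library A, 1 without GAP-scr library B, 0 without either GAP-2 library and 1 without either GAP-2/3 library. Of 15 imprinted genes 5 fell and 3 rose, and after either scaling 5 were lower and 1 higher. The abundant H19, a long non-coding RNA, stood at 3242 and 3656 FPKM in GAP-scr and 2392 and 2666 in GAP-2, and Igf2, the growth factor gene beside it, at 533 and 441 FPKM in GAP-scr and 321 and 321 in GAP-2. The receptors Igf2r (-0.41) and Igf1r (-0.50) fell with the ligand. The PI3 kinase regulatory subunit Pik3r1 (0.85) rose. Over the 27 genes of IGF, insulin and mTOR signalling 6 rose and 4 fell, or 22.2% and 14.8% against 10.4% and 4.18% of all genes. The lower count was 1 without GAP-2 library A and 0 without GAP-2 library B. Lower imprinted genes numbered 1 without either GAP-2 library and 2 without either GAP-2/3 library, and higher ones 1 without GAP-scr library B, 1 without either GAP-2 library and 1 without either GAP-2/3 library.

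In the Wnt list 5 of 22 genes rose and 3 fell, or 22.7% and 13.6% against 10.4% and 4.18% of all genes. After either scaling 3 were higher and 3 lower. Axin2, a feedback inhibitor and standard reporter of β-catenin signalling, stood at 0.173 and 0.246 FPKM in GAP-scr and 1.77 and 1.997 in GAP-2. Wnt10b, a ligand, stood at 8.51 and 8.77 FPKM in GAP-scr and 18.7 and 18.04 in GAP-2, and Sfrp2, a secreted Wnt antagonist, at 0.751 and 0.644 FPKM in GAP-scr and 3.59 and 2.82 in GAP-2. Control levels of Axin2 and Sfrp2 were under 1 FPKM, so the log2 differences of 1.25 and 1.30 understate the change. β-catenin (Ctnnb1, 0.36) rose slightly, a call lost under 10 of 16 alternatives, both scalings among them. The repressor Tcf7l1 (-0.69) fell. In the TGF-β list 6 of 32 genes rose and 3 fell, or 18.75% and 9.38% against the same shares of all genes. This balance turned with scaling: 3 were higher and 4 lower after median scaling, and 2 and 4 after quantile normalization. The ligand Bmp4 (1.22) and the BMP antagonist Grem1 (0.93) rose, and the activin antagonist Fstl3 (-0.69) fell. Notch3, a receptor, stood at 53.6 and 52.8 FPKM in GAP-scr and 34.6 and 28.4 in GAP-2. Heyl, a Notch target, stood at 68.3 and 50.4 FPKM in GAP-scr and 35.99 and 28.6 in GAP-2. With Maml3 (-0.77), a coactivator, Notch3 and Heyl made up the 3 lower genes of 20 in that pathway. The 1 higher gene was Adam10. Kitl, the ligand of Kit, stood at 1.79 and 0.9597 FPKM in GAP-scr and 7.55 and 7.01 in GAP-2, while the receptors Fgfr4 (-0.86) and Erbb2 (-0.53) fell. Of the 27 ligands and receptors of their list (FGF, EGF and HGF) 2 rose and 5 fell, or 7.41% and 18.5% against 10.4% and 4.18% of all genes. Both counts changed when single libraries were left out. The higher Wnt count was 3 without either GAP-2 library and 3 without either GAP-2/3 library, and the lower 1 without GAP-scr library B, 1 without either GAP-2 library and 1 without either GAP-2/3 library. The higher TGF-β count was 2 without either GAP-2 library and 2 without either GAP-2/3 library, and the lower 6 without GAP-scr library A, 1 without GAP-2 library A and 0 without GAP-2 library B.

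Matrix genes went both ways. The fibrillar collagens Col1a1 (-0.17, adjusted p = 0.41), Col1a2 (0.02, adjusted p = 0.93) and Col3a1 (-0.01, adjusted p = 0.98) were not called. Several proteoglycans rose. Vcan (versican) stood at 47.5 and 35.8 FPKM in GAP-scr and 91.5 and 90.7 in GAP-2, Fmod (fibromodulin) at 7.26 and 8.76 FPKM in GAP-scr and 20.1 and 16.5 in GAP-2, and Prelp (1.30) and Dcn (0.69) followed. Aspn (-0.93) (asporin) fell, and biglycan, Bgn (-0.03, adjusted p = 0.88), and osteoglycin, Ogn (-0.25, adjusted p = 0.36), were not called. Fibronectin (Fn1), an adhesive glycoprotein, was lower in both GAP-2 libraries, at 1297 and 1346 FPKM in GAP-scr and 989 and 862 in GAP-2. Over the list 9 of 37 genes rose and 5 fell, or 24.3% and 13.5% against 10.4% and 4.18% of all genes. The lower count was 3 without GAP-2 library A and 1 without GAP-2 library B. Timp3, an inhibitor of matrix metalloproteinases, stood at 18.1 and 18.5 FPKM in GAP-scr and 43.9 and 55.4 in GAP-2, a difference of 1.38 ± 0.13 (SE; adjusted p = 8.2e-05). Of 21 matrix proteases and inhibitors 4 rose and 3 fell, or 19.05% and 14.3% against 10.4% and 4.18% of all genes. Both counts changed when single libraries were left out. Among guidance molecules 5 of 39 rose, or 12.8% against 10.4% of all genes, led by the receptor Nrp2 (1.03). Another 5 fell (12.8% against 4.18%), led by Sema7a, a membrane-anchored semaphorin, at 17.8 and 20.99 FPKM in GAP-scr and 9.09 and 9.35 in GAP-2. After either scaling 4 were higher and 7 lower, and without both libraries high in Rn45s 4 and 2. These counts depended on the libraries, the higher being 1 without GAP-2 library A and 2 without GAP-2 library B and the lower 3 without GAP-scr library A, 1 without either GAP-2 library and 2 without either GAP-2/3 library. Of 25 solute carriers tested 3 rose and 2 fell, or 12.0% and 8.0% against 10.4% and 4.18% of all genes. Both counts changed when single libraries were left out. They included one of the steepest rises, Slc16a4, a member of the monocarboxylate carrier family, at 0.494 and 0.487 FPKM in GAP-scr and 5.77 and 5.996 in GAP-2. Slc7a7, which exchanges cationic amino acids, stood at 2.63 and 2.54 FPKM in GAP-scr and 8.44 and 8.83 in GAP-2. Both rose in each GAP-2 library, with differences of 2.21 and 1.43. Of 39 lysosome and autophagy genes 12 rose and 1 fell. Those that rose included the proton pump subunits Atp6v1a (0.76), Atp6v1h (0.47) and Atp6v1b2 (0.43) and the hydrolase Gla (0.63); median scaling gave 8 higher. The count was 6 without GAP-2 library A and 3 without GAP-2 library B.

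Of 47 subunits of oxidative phosphorylation 1 fell and none rose by limma (2 higher at an unadjusted p under 0.05), the lower count being 11 without GAP-scr library A, 0 without GAP-scr library B, 0 without either GAP-2 library and 0 without either GAP-2/3 library. Of 36 proteasome genes 1 rose (Psme2), and of 32 glycolysis and hypoxia genes 3 rose, or 2.78% and 9.38% against 10.4% of all genes. Of 53 cytosolic ribosomal proteins 4 rose (7.55%), none of them after median scaling, and these genes have many near-identical copies. Without both libraries high in Rn45s 10 were higher and 5 lower, and of the oxidative phosphorylation genes 1 and 7. The higher count was 13 without GAP-scr library A, 0 without GAP-2 library A, 1 without GAP-2 library B and 0 without either GAP-2/3 library. The balance of splicing factors depended on scaling, 8 of 41 being higher and 2 lower as deposited, 3 and 4 after median scaling, 4 and 4 after quantile normalization, and 8 and 0 without both libraries high in Rn45s. The higher count was 14 without GAP-scr library A, 3 without GAP-scr library B, 1 without GAP-2 library A, 0 without GAP-2 library B and 2 without either GAP-2/3 library. Rbm24 (-0.64), a muscle splicing regulator, fell, and Mbnl1 (0.55) rose. The lower count was 1 without GAP-scr library A, 0 without GAP-2 library A, 1 without GAP-2 library B and 1 without either GAP-2/3 library. Of 25 long non-coding RNAs 12 rose and 1 fell, and 8 were higher after median scaling. Most of them were hosts of small nucleolar RNAs. Snhg6 stood at 23.7 and 22.96 FPKM in GAP-scr and 46.9 and 55.4 in GAP-2 and Snhg3 at 44.3 and 27.6 FPKM in GAP-scr and 77.6 and 72.3 in GAP-2, with differences of 1.09 and 1.08, and Snhg12 (0.71), Snhg1 (0.64) and Gas5 (0.57) rose as well. The nuclear RNAs Malat1 (0.00, adjusted p = 0.99) and Neat1 (-0.39, adjusted p = 0.088) were not called. The higher count of long non-coding RNAs was 4 without GAP-2 library A, 5 without GAP-2 library B and 7 without either GAP-2/3 library.

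**Figure D4:**
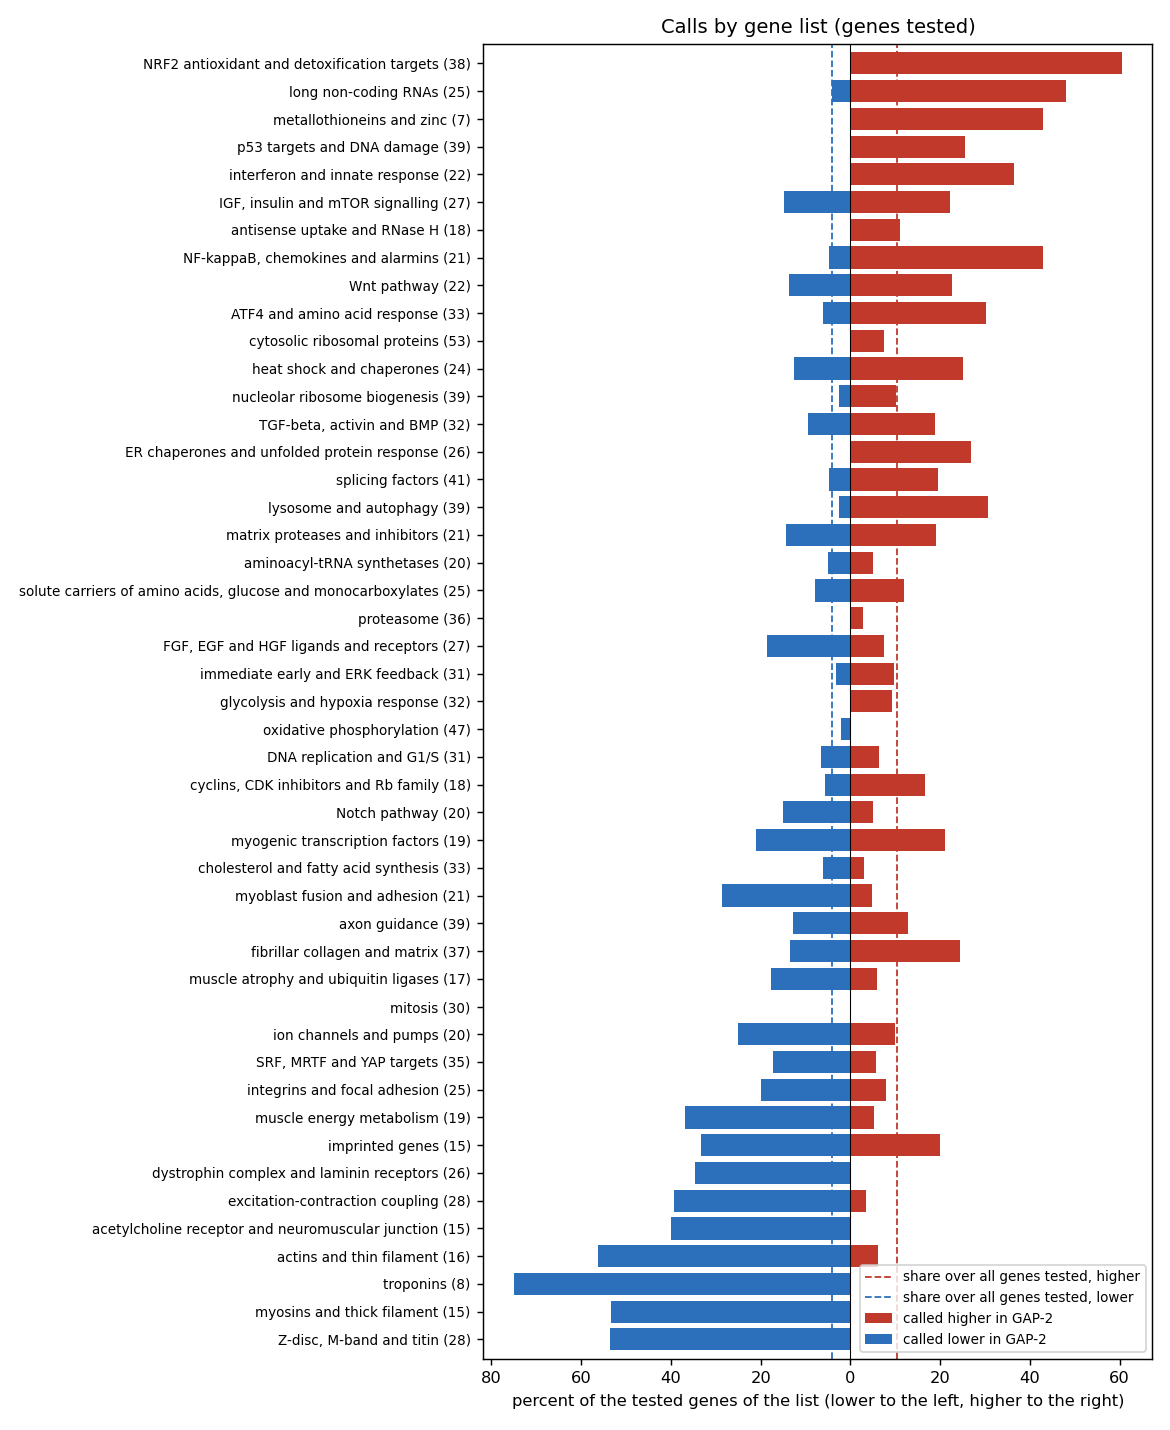
Bars give the percent of the tested genes of each list that were called higher (red, to the right) or lower (blue, to the left) in GAP-2, with the number of genes tested in brackets and lists ordered by their median difference; dashed lines mark 10.4% and 4.18%, the shares over all genes. Contractile lists lie at the bottom and NRF2 targets at the top with 60.5% higher, while the splicing factors become 3 higher and 4 lower, and the ribosomal proteins none higher, after median scaling.

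Several of the steepest increases were in genes of no list. Cd24a, a glycosylated surface protein, stood at 6.52 and 6.201 FPKM in GAP-scr and 67.9 and 69.01 in GAP-2, a difference of 3.24 ± 0.10 (SE; adjusted p = 1.6e-08), the highest of all tested genes. C130074G19Rik stood at 0.477 and 0.662 FPKM in GAP-scr and 13.7 and 13.8 in GAP-2, a difference of 3.23 ± 0.12 (SE; adjusted p = 3.8e-08). Qpct, which cyclises the amino terminus of peptides, stood at 1.41 and 2.17 FPKM in GAP-scr and 13.6 and 14.6 in GAP-2, a difference of 2.45 ± 0.15 (SE; adjusted p = 1.5e-06). Control libraries were low for the latter 2, and the 2 GAP-2 libraries lay close together in all of these genes. Enpp2 (autotaxin), which makes lysophosphatidic acid, stood at 0.748 and 1.11 FPKM in GAP-scr and 10.3 and 8.14 in GAP-2. Ly6a (Sca-1), a surface protein of several progenitor cells, stood at 8.62 and 10.1 FPKM in GAP-scr and 47.5 and 56.1 in GAP-2. Stra6, a receptor for retinol-binding protein, stood at 1.69 and 1.59 FPKM in GAP-scr and 12.5 and 11.5 in GAP-2. All 6 genes were called under each of the processing alternatives tried. Cxcr6 (2.02), Lrrn3 (2.00), Mgst1 (1.83) and Tnfsf9 (1.77) were the next without a list among called genes averaging 5 FPKM or more. Sat1, the enzyme that acetylates polyamines, gained much RNA, from 157 and 139 FPKM to 378 and 363, a difference of 1.32 ± 0.11 (SE; adjusted p = 2.4e-05). At the lower end were Cotl1 (-0.95), an actin-binding protein, Rin3 (-0.92), a regulator of Rab5, and ORF63, with -0.90. Mif, a cytokine with abundant RNA, was lower at 1096 and 1639 FPKM in GAP-scr and 873 and 985 in GAP-2, though with an adjusted p of 0.049.

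Markers of the labelled cells were present at high levels in all 4 libraries. The 14 skeletal muscle markers summed to 18925 and 20638 FPKM in GAP-scr and 12234 and 12911 in GAP-2, and 11 of the 14 fell, a count that was 4 without GAP-2 library A and 6 without GAP-2 library B. Some markers of other cells were called as well. None of 8 endothelial markers is in the table; 2 of 9 macrophage markers are, and both rose, Cd68 from 0.374 and 0.917 FPKM to 2.43 and 3.54, and Cd14 by 0.48. The number of macrophage markers called was 1 without GAP-scr library A, 1 without either GAP-2 library and 1 without either GAP-2/3 library. The summed macrophage markers were 3.12 and 4.04 FPKM against 7.28 and 7.70. Of 12 fibroblast markers 8 are in the table and summed to 4989 and 5428 against 6400 and 5991 FPKM. S100a4 and Dcn rose, and Col1a1, Col1a2, Col3a1, Pdgfra, Pdpn and Postn were not called. The mean of S100a4 alone was higher by 1018.5 FPKM in GAP-2, so the other markers together did not rise. The higher fibroblast markers numbered 1 without either GAP-2 library and 1 without either GAP-2/3 library. Of 8 smooth muscle markers 4 fell and none rose by limma (0 at an unadjusted p under 0.05). Osteoblast genes included Sp7 at 3.59 and 3.85 FPKM in GAP-scr and 11.3 and 11.3 in GAP-2, and Bglap2, which has near-identical copies, at 1.96 and 1.74 FPKM in GAP-scr and 15.7 and 14.6 in GAP-2, but Runx2 (-0.05, adjusted p = 0.84) was not called. Of 6 osteoblast genes tested these 2 were the ones called. Krt14, the only epithelial marker of 8 in the table, stood at 11.4 and 17.1 FPKM in GAP-scr and 41.8 and 40.5 in GAP-2. Of 10 myoblast markers 8 are in the table, 2 rising (Myf5 and Cd34) and 1 falling (Itga7). Of 4 Schwann or neural markers tested Tubb3 (0.98) and S100b (0.97) rose and Ncam1 fell. None of 3 adipocyte markers tested was called by limma (0 at an unadjusted p under 0.05), nor any of 5 genes taken as signs of RNA quality (0 higher and 1 lower at an unadjusted p under 0.05). The part of such cells in the results above was not tested.

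GAP-2 was also set against GAP-2/3, using the same 2 GAP-2 libraries, so the 2 comparisons share samples. Of 10993 genes 401 were higher (3.65%) and 714 lower (6.5%) in GAP-2 than in GAP-2/3. Of 33 genes of the ATF4 list 28 were higher in GAP-2 than in GAP-2/3 and none lower by limma, with a median of 0.98 against -0.05 over all tested genes, and 19 to 29 when 1 library was left out. Gdf15 stood at 11.3 and 10.1 FPKM in GAP-scr, 22.8 and 20.2 in GAP-2 and 3.81 and 4.400 in GAP-2/3, a difference of 2.14 ± 0.13 (SE; adjusted p = 2e-06) from GAP-2/3. Trib3, a pseudokinase of the stress response, stood at 26.1 and 31.5 FPKM in GAP-scr, 41.2 and 51.7 in GAP-2 and 9.66 and 13.9 in GAP-2/3, a difference of 1.90 ± 0.17 (SE; adjusted p = 4.7e-05). Chac1 stood at 33.7 and 33.2 FPKM in GAP-scr, 31.6 and 41.8 in GAP-2 and 10.6 and 12.1 in GAP-2/3, with GAP-scr and GAP-2 overlapping and GAP-2/3 below both. Slc7a5 stood at 60.3 and 68.6 FPKM in GAP-scr, 44.6 and 48.1 in GAP-2 and 16.3 and 18.5 in GAP-2/3, so that GAP-2 lay between the other groups.

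Glycolysis and hypoxia genes differed in the same way, 17 of 32 being higher in GAP-2 than in GAP-2/3, a count that was 11 without GAP-2 library B, 9 without GAP-2/3 library A and 7 without GAP-2/3 library B. Hk2, hexokinase 2, stood at 23.1 and 21.2 FPKM in GAP-scr, 20.8 and 22.6 in GAP-2 and 9.501 and 9.89 in GAP-2/3, and Vegfa, the vascular growth factor, at 107 and 118 FPKM in GAP-scr, 105 and 122 in GAP-2 and 59.7 and 57.8 in GAP-2/3. In both, GAP-2 overlapped GAP-scr and GAP-2/3 was lower. Of 30 mitosis genes 15 were lower in GAP-2 than in GAP-2/3, a count that was 0 without GAP-2 library A, 6 without GAP-2 library B and 0 without either GAP-2/3 library. It was 10 after median scaling, 9 after quantile normalization and 6 without both libraries high in Rn45s. Top2a, which untangles DNA, stood at 7.33 and 8.17 FPKM in GAP-scr, 6.91 and 8.44 in GAP-2 and 12.3 and 10.3 in GAP-2/3. Of 22 interferon genes 7 were lower and 2 higher in GAP-2 than in GAP-2/3, the lower count being 4 without GAP-2 library A and 4 without either GAP-2/3 library, and the higher 0 without GAP-2 library A, 1 without GAP-2 library B and 0 without either GAP-2/3 library. One of the lower genes was Gbp2, an interferon-induced GTPase, at 0.694 and 0.469 FPKM in GAP-scr, 1.304 and 1.203 in GAP-2 and 13.1 and 12.3 in GAP-2/3. The metallothionein Mt2 stood at 3.54 and 5.17 FPKM in GAP-scr, 6.09 and 6.15 in GAP-2 and 21.5 and 22.97 in GAP-2/3. In these 2 genes GAP-2/3 was far above both other groups.

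Genes called against both groups in the same direction show what was higher or lower in GAP-2 than in either. Among those averaging 5 FPKM or more over the 6 libraries, the 8 highest were Cd24a, Qpct, Aldh3a1, Ly6a, Ccl2, Tnfsf9, Pfn2 and Timp3. Cd24a stood at 38.1 and 38.1 FPKM in GAP-2/3, a difference of 0.83 ± 0.10 (SE; adjusted p = 0.00053), and Ly6a at 28.8 and 25.5, a difference of 0.90 ± 0.13 (SE; adjusted p = 0.0012). Tnfsf9, a ligand of the tumour necrosis factor family, stood at 5.98 and 7.03 FPKM in GAP-scr, 22.1 and 27.2 in GAP-2 and 9.58 and 12.5 in GAP-2/3. GAP-2/3 lay between GAP-scr and GAP-2 in these 3. Under the same limit the 8 lowest were ORF63, Tagln, Enpp1, Plekhg5, Zscan26, Sbk2, Msrb3 and Epha1. Enpp1, which makes pyrophosphate, stood at 31.1 and 32.3 FPKM in GAP-scr, 16.3 and 18.1 in GAP-2 and 38.2 and 37.3 in GAP-2/3, a difference of -1.09 ± 0.11 (SE; adjusted p = 0.00011) from GAP-2/3. Epha1, an ephrin receptor, stood at 10.9 and 14.5 FPKM in GAP-scr, 7.26 and 7.62 in GAP-2 and 19.9 and 22.7 in GAP-2/3, a difference of -1.40 ± 0.14 (SE; adjusted p = 0.00012). GAP-2 was the lowest of the 3 groups at both genes, and GAP-2/3 the highest.

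**Figure D5:**
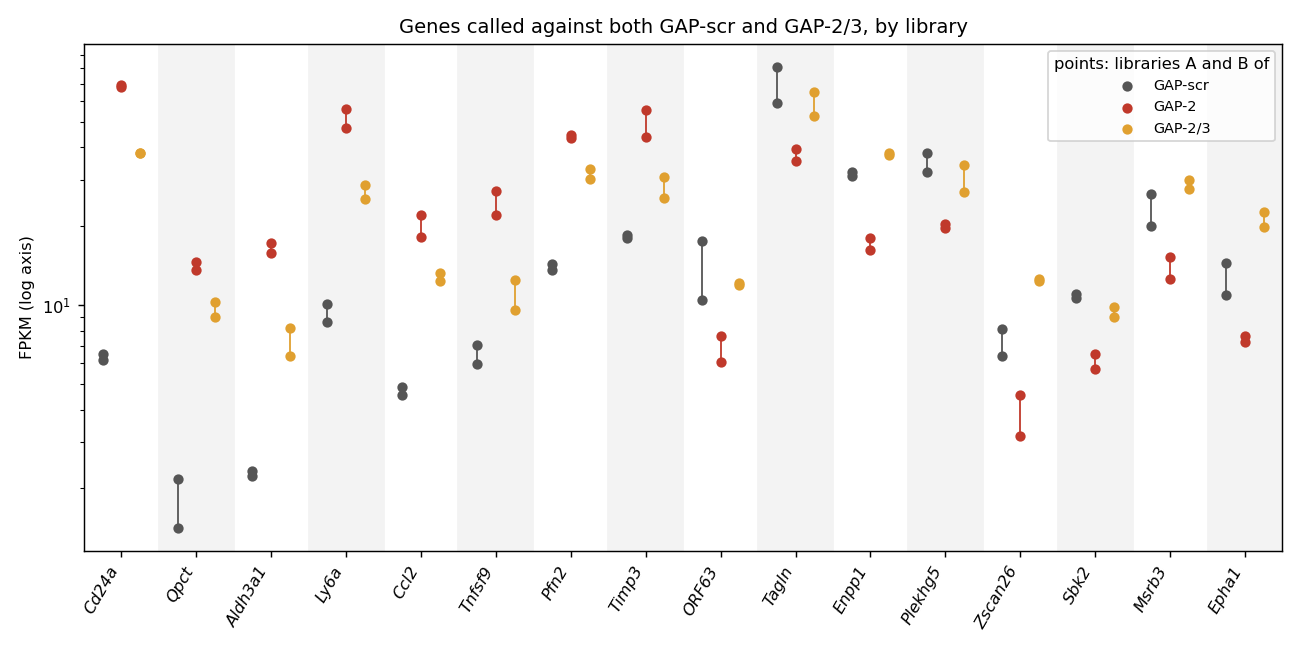
FPKM on a log axis of the 8 highest and 8 lowest genes averaging 5 FPKM or more and called in the same direction against GAP-scr and against GAP-2/3, with the 2 libraries of a group joined by a line. In the 8 genes on the left both GAP-2 points are the highest, and in the 8 on the right the lowest; in Enpp1, Zscan26 and Epha1 GAP-2/3 lies above GAP-scr.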

How the data were processed

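The authors deposited 1 table of FPKM values, with 1 column for each of 6 RNA-seq libraries. Libraries were made from poly(A) RNA with a stranded TruSeq kit, per the labels' protocols. The submitters' processing notes name TopHat2, Cufflinks and Cuffdiff among other tools, and the build mm9, without roles or versions. ChIRP-seq peaks were not used here. FPKM values were taken as log2(FPKM + 1) for genes averaging 1 FPKM or more across the 6 libraries, which left out 235. All 3 groups were fitted together in limma 3.58.1 (R 4.3.3) with the variance trended on intensity and with no further term, so GAP-2/3 adds to the estimate of spread. The Benjamini-Hochberg adjustment covered all 10993 genes, with a threshold of 0.05; the fit was tested on simulated data, in which many small changes were missed, so a gene not called may still differ.

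Named genes were the 15 highest and 15 lowest called genes averaging 5 FPKM or more in the 4 libraries compared, without overlap, the 10 with the largest FPKM difference each way, up to 5 members of each list by p, and the 8 highest and 8 lowest called against both groups. Other genes are named for their role or because their list was being accounted for, and were chosen with their values in view. Members and lists were chosen with earlier results of these data known. RefSeq (GRCm38.p6) held a match for 10950 of the tested symbols. Promoters were at hand for 78.8% of the higher and 76.3% of the lower genes, too few for a comparison of motif shares between them. Such shares were counted by call, but they are not compared or reported here. The alternatives tried were another pseudocount (0.1), the filter removed or raised to 5 FPKM, 2 other scalings (a common median, quantiles), no trend, the replicate letter as a block, the 4 libraries alone, a threshold of 0.1, each library left out, and both libraries high in Rn45s left out.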

Additional observations from a re-analysis of the deposited data

How the results depend on the processing

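Of the 348 genes taken by the naming rule or named in the text, 276 were called; none of these called genes reversed under any alternative, and 133 were called under every alternative. Against GAP-scr, the 4 libraries alone gave 937 genes (675 higher, 262 lower), a threshold of 0.1 gave 2567 (1786 and 781), quantile normalization 692 higher and median scaling 708 higher. Leaving out 1 library gave 504 to 2624 genes, 353 to 1880 higher and 143 to 744 lower; leaving out either GAP-2/3 library, which takes no part in the contrast, gave 943 and 942. Without both libraries high in Rn45s there were 1511; lower counts then moved to 1 (IGF list), 0 (ATF4 list) and 3 (imprinted genes), and TGF-β genes to 3 higher and 2 lower, Wnt genes to 4 and 4. Against GAP-2/3, the 4 libraries alone gave 2055 genes (717 higher, 1338 lower), a threshold of 0.1 gave 1781 (629 and 1152), a mean of at least 5 FPKM 472 lower, median scaling 464 lower, and leaving out 1 library 195 to 2052 (78 to 722 higher, 117 to 1330 lower). The cause of these shifts was not tested. The letters A and B were not used to pair the libraries in the main fit. Deviations from the group means correlated at 0.36 between GAP-scr and GAP-2, and at -0.13 and -0.18 between these and GAP-2/3. In both GAP-scr and GAP-2, library A was the one high in Rn45s. Whether the letters mark anything shared between groups was not tested. With the replicate block 1955 genes were called, against 1604 in the main fit. Depth is unknown, so no limit from counting can be given.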

Other observations

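Some values fell outside the gene groups described. Hba-a1 and Hba-a2, near-identical copies of α-globin, went opposite ways: Hba-a1 stood at 3.83 and 4.68 FPKM in GAP-scr and 0.00065 and 0.10 in GAP-2, and Hba-a2 at 0.019 and 0.028 against 7.24 and 4.37. The summed level was 3.85 and 4.71 FPKM against 7.24 and 4.47. Since reads of near-identical copies can be assigned to either, the single values, of which the first is the lowest difference of all tested genes (-2.32), are uncertain.

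Shares of called genes differed between chromosomes in these libraries. Of 356 tested genes on chromosome X, 18.0% were higher and 2.25% lower, and of 537 on chromosome 3, 16.2% and 1.49%. Of 810 on chromosome 7, 6.05% were higher and 6.54% lower. After median scaling the shares of higher and lower genes were 12.4% and 2.53% on X, 9.50% and 2.05% on 3, and 3.83% and 8.15% on 7. These are descriptions with no test. With genes put in 5 equal classes by mean FPKM, 2.82% were lower in the lowest class and 6.23% in the highest. After median scaling these shares were 3.64% and 8.19%, and after quantile normalization 5.82% and 7.59%.

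A few genes of weak expression fell by about as much as Acta1 on the log2(FPKM + 1) scale, which understates their change. In proportion of FPKM they fell by more than Acta1. The gene 1500015O10Rik stood at 4.32 and 5.26 FPKM in GAP-scr, 1.76 and 1.65 in GAP-2 and 6.18 and 5.64 in GAP-2/3, the carboxylesterase Ces2c at 6.06 and 4.99 FPKM in GAP-scr, 2.33 and 2.03 in GAP-2 and 2.47 and 1.72 in GAP-2/3, and the semaphorin Sema3g at 2.67 and 2.58 FPKM in GAP-scr, 0.877 and 0.811 in GAP-2 and 0.998 and 1.37 in GAP-2/3. In 1500015O10Rik, GAP-2/3 lay above GAP-scr, and in the others it lay nearer GAP-2 than GAP-scr. They were chosen after their values were seen.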
